A study of Mus musculus with 19 samples.

Results

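The genes described here are 10 basement membrane genes, taken by name from a table of 24972 genes: the collagen IV chains Col4a1 and Col4a2, the laminin alpha chains Lama2 and Lama4, the beta chains Lamb1 and Lamb2, the gamma chain Lamc1, the nidogens Nid1 and Nid2, and perlecan (Hspg2). All 10 passed the filter on low values and were among 16625 genes tested. They were measured by RNA sequencing of total RNA in 19 libraries from the plantaris tendon of mice, a slender tendon of the calf. Scx- mice, in which the study's title places a targeted deletion of the gene for scleraxis (Scx), a factor that controls transcription in tendon cells, received tamoxifen and were sampled after 7 days (n = 4) or 14 days (n = 4) of a growth stimulus. Scx+ mice received tamoxifen and were sampled after 7 days (n = 4) or 14 days (n = 4) of the stimulus. Control mice (n = 3) were Scx+, received no tamoxifen and had no growth stimulus. Against the control, the effect of the stimulus and that of tamoxifen therefore cannot be told apart, and with no unstimulated Scx- group, genotype differences under the stimulus and differences present without it cannot be told apart. The labels used here give no allele, strain, sex, age or kind of stimulus, and do not say whether libraries came from separate animals, so p-values measure the spread between these samples.

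Basement membranes are thin sheets of matrix that lie against cells rather than between collagen fibrils. Laminin, a trimer of an alpha, a beta and a gamma chain, forms a polymer on the cell surface, collagen IV forms a second network, and nidogens and the proteoglycan perlecan link the pair. In and around a tendon such sheets surround the endothelium and mural cells of vessels, Schwann cells, adipocytes and the muscle fibres at its ends, while the fibroblasts among the collagen fibrils are embedded in interstitial matrix.

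The deposited signal summed to 36.6 to 48.5 mega-units in the stimulated libraries and 67.8 to 79.8 mega-units in the controls. It is a scaled value that did not resolve into whole reads, and the depth behind it is unknown. Scx itself lay at 5.7 to 17.2 units in day 7 and 1.7 to 5.8 units in day 14 Scx- libraries. It lay at 2772.5 to 8044 units in day 7 and 2096 to 5093 units in day 14 Scx+ libraries and at 319 to 593 units in the controls, and every library matched its genotype label. As a description of the tissue, 10 tendon fibroblast markers took 1.38% to 10.1% of the signal in stimulated libraries and 0.36% to 1.07% in controls. None was at 0 in any library, but Scx at 1.7 units also counts as above 0, so the tissue label was not tested by this. Skeletal muscle fibre markers (16 genes) took 22.6% to 27.1% of the signal in the controls. They took 0.308% to 5.18% in Scx- and 0.0292% to 1.77% in Scx+ at day 7, with 3.74% to 16.8% in Scx- and 0.216% to 7.85% in Scx+ at day 14. Within Scx- day 14, replicates 1 and 2 held 14.5% and 16.8%, and replicates 3 and 4 held 3.89% and 3.74%, and this pair is called the muscle-rich pair below. Differences of the 10 genes that involve that group, and the counts of the 4 gene lists there, are also given without it where it moved a call or a value. In whole tissue, fewer cells of a type and less RNA per cell cannot be told apart.

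Values below are the deposited signal after rescaling each library by medians of ratios, given as signal units. Differences are log2 fold changes with the standard error (SE) of a limma fit over all 16625 genes and 5 groups, with p-values adjusted over all tested genes and a threshold of 0.05. On library totals in place of medians of ratios, the median gene itself shifted against the control by 0.48 to 0.70 log2 units. On the deposited scale with no rescaling it shifted by -0.34 in Scx- at day 14 against the control and by -0.24 between genotypes at day 14. The differences given are relative to the median gene, and calls that depend on this choice are named.

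The genes are spread over 8 chromosomes, with 1 close pair (GENCODE M21 on GRCm38, the assembly also called mm10). Col4a1 (chromosome 8, 11198423 to 11312826, minus strand) and Col4a2 (chromosome 8, 11312805 to 11449287, plus strand) stand head to head, and their annotated starts overlap by 22 bases. Lama2 (26980036 to 27619758) and Lama4 (38965515 to 39110188) lie on chromosome 10, Lamb1 on chromosome 12 (31265234 to 31329644) and Lamb2 on chromosome 9 (108479736 to 108490530). Lamc1 lies on chromosome 1 (153218922 to 153332786), Nid1 on chromosome 13 (13437551 to 13512269), Nid2 on chromosome 14 (19751265 to 19811787) and Hspg2 on chromosome 4 (137468769 to 137570630). Whether the libraries kept the strand is not stated, and 8.45% of the exon length of Nid2 is shared with the opposite-strand gene Rtraf, 3.86% of that of Lama2 with Gm48084 and 2.06% of that of Nid1 with Gm48682. Reads of these stretches cannot be assigned to 1 gene without strand.

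Promoter sequences from RefSeq (GRCm38.p6) are shown for 4 genes. Col4a1 and Col4a2 are shown because the pair shares 1 stretch of promoter and was the closest pair across libraries, and Lamb1 and Lamb2 because these partner chains lay on opposite sides of the control. The first line is the 78 bases that belong to the promoter windows of both collagen IV genes (chr8:11312777-11312854), on the strand of Col4a2, with the CTC box (CCCTCCCC) in capitals, a motif described in this shared promoter. The other 2 are the 250 bases before the RefSeq starts of Lamb1 (chr12:31265043-31265292) and Lamb2 (chr9:108479612-108479861), both on the plus strand, with GC boxes (GGGCGG) and CCAAT boxes of either strand in capitals. The TATA box was searched as TATAAA. The GENCODE starts of both laminin genes lie inside these stretches.
Col4a1 and Col4a2: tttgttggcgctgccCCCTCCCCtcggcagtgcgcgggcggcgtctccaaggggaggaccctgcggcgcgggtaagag
Lamb1: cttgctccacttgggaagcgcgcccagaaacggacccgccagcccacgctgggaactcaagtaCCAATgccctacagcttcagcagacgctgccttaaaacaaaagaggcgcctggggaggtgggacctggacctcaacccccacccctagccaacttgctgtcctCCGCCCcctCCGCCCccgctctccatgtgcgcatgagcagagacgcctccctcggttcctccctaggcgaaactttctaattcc
Lamb2: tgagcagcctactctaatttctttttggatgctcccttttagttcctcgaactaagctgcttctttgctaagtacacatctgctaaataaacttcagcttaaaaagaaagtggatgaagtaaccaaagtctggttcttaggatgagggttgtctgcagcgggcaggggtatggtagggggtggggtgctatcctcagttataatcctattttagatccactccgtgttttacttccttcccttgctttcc

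The 3 stretches are unlike regions, so their compositions and motif counts do not compare like with like. The 78 collagen IV bases lie within the first 50 bases after the start of 1 or the other gene. The 250 bases of each laminin gene lie before its RefSeq start. The collagen IV stretch is 73.1% G and C and holds 1 CTC box and 1 GC box, with the GC box left in lower case. The Lamb1 stretch is 62% G and C and holds 2 GC boxes and 1 CCAAT box. The Lamb2 stretch is 43.6% G and C and holds no match to these 3 motifs or to the TATA box. In the full windows of 300 bases, Col4a1 held 1 CTC box, 1 GC box and 1 CCAAT box, and Col4a2 held 1, 3 and 1. The full windows of Lamb1 and Lamb2 held the same matches to these motifs as their stretches. Of 32851 mouse promoter windows of 300 bases, 10.8% hold the CTC box, 35.7% the GC box, 37.4% the CCAAT box and 13.6% the TATA box on either strand. The E-box (CANNTG), to which factors of the family of scleraxis bind, is in 72.3% of all windows. It was matched in the windows of Lama2 (1), Lamb1 (2) and Lamb2 (1), and not in those of Col4a1, Col4a2, Nid1 and Hspg2. Such matches describe letters only. Windows for Nid2, Lama4 and Lamc1 were not used here.

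The comparison of each stimulated group with the control asked how the tendon's transcripts for basement membrane differed after the stimulus. Lamb1, Nid1, Nid2, Col4a1 and Lama4 were higher than in the controls in all 4 stimulated groups, and Lamb2 was lower in all 4. Col4a2 and Hspg2 passed as higher in the Scx+ groups, Lama2 passed as lower at day 7, and Lamc1 passed in none. In Scx- at day 7, 5 genes passed as higher and 2 as lower, where 58.2% of all genes tested passed (32.3% higher, 25.9% lower). In Scx+ at day 7, 7 passed as higher and 2 as lower, where 61.3% of all genes did (33.8% higher, 27.5% lower). In Scx- at day 14, 5 passed as higher and 1 as lower, where 43.9% of all genes did (25.5% higher, 18.3% lower). In Scx+ at day 14, 7 passed as higher and 1 as lower, where 55.9% of all genes did (30.9% higher, 25% lower). The libraries did not overlap with the controls for 8 of the 10 genes in Scx- and 9 in Scx+ at day 7, and for 3 in Scx- and 8 in Scx+ at day 14, where 58.1%, 62.3%, 38.2% and 51.9% of all genes tested did not. Against backgrounds this high, counts over 10 genes describe them and set them apart from no other genes. With the muscle-rich pair left out, 7 passed in Scx- at day 14. On the deposited scale with no rescaling, 3 of the 10 genes passed in Scx- at day 14, so some of these calls depend on the scaling. For each gene the fit shares 1 estimate of spread over the 5 groups. When only Scx- day 14 and the controls were fitted, 2 of the 10 genes passed there, so some calls also depend on this sharing. The median log2 fold change of the 10 genes was 1.01 in Scx- and 1.35 in Scx+ at day 7, and 0.85 in Scx- and 1.37 in Scx+ at day 14, where that of all genes tested lay between 0.12 and 0.18. The 4 comparisons share the 3 control libraries. In the authors' deposited table Lamc1 passed as higher in Scx+ day 7 (adjusted p = 0.0439). Col4a2 and Hspg2 passed there as higher in Scx- day 7 (adjusted p = 0.015 and 0.0231), and Lama4 did not pass in Scx- day 14 (adjusted p = 0.0543). That table has 61.6% of its genes under 0.05 in Scx+ day 7, 57.1% in Scx- day 7 and 32% in Scx- day 14.

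**Figure D1:**
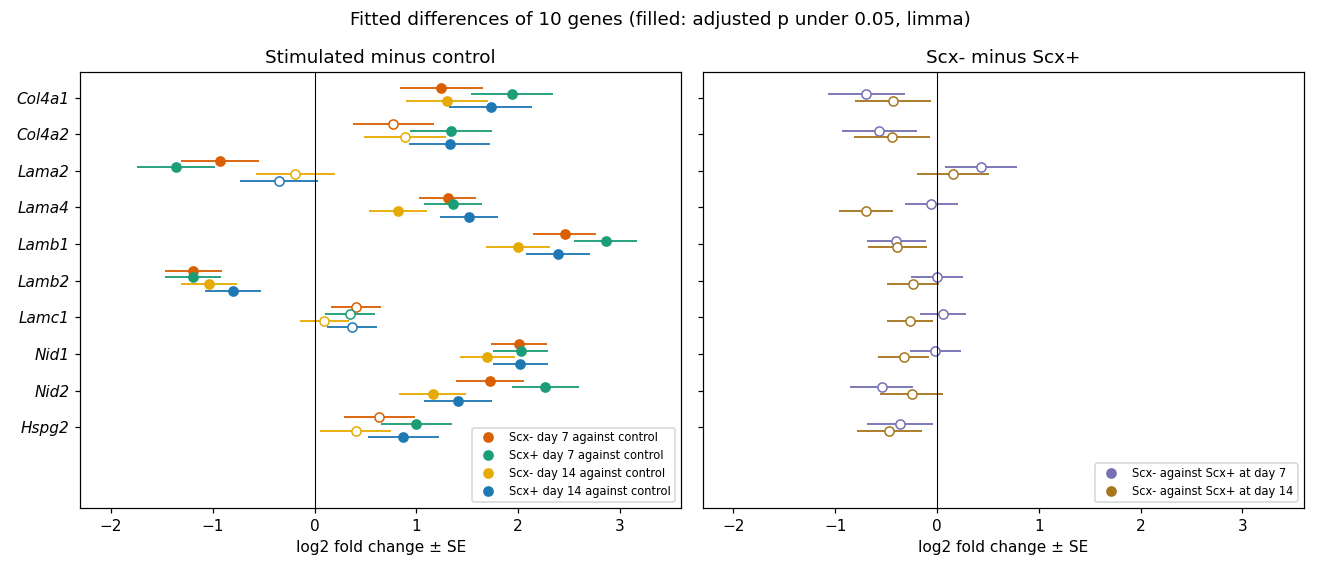
Fitted log2 fold changes ± SE of the 10 genes, on the left each stimulated group minus the control and on the right Scx- minus Scx+ at each day; filled points passed an adjusted p of 0.05 (limma). Lamb1 lies farthest to the right and Lamb2 left of 0 in all 4 comparisons with the control, with the Lamb2 calls lost and the day 14 values of Lama2 turned positive on library totals, and no point on the right is filled.

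Of the collagen IV chains, Col4a1 passed in all 4 comparisons and Col4a2 in those of the Scx+ groups. Together their products form the trimer found in nearly all basement membranes, built from a pair of alpha 1 chains and a single alpha 2 chain. Col4a1 had 29887, 22473, 24567 and 14668 units in Scx- libraries at day 7 and 24816, 30004, 42377 and 52489 in Scx+ libraries. The day 14 libraries had 35844, 8731, 38236 and 23493 in Scx- libraries and 32095, 23563, 30067 and 40949 in Scx+ libraries, against 9739, 11151 and 7519 in the controls. Of the 16 stimulated libraries only Scx- day 14 replicate 2 fell inside the control range. The log2 fold change was 1.25 ± 0.41 in Scx- (SE; adjusted p = 0.0144, limma) and 1.94 ± 0.41 in Scx+ (adjusted p = 0.000551) at day 7. At day 14 it was 1.30 ± 0.41 in Scx- (adjusted p = 0.0157) and 1.73 ± 0.41 in Scx+ (adjusted p = 0.00171). Without Scx- day 14 replicates 1 and 2 the Scx- day 14 value was 1.67 (adjusted p = 0.000869). Leaving out control replicate 3 ended both Scx- calls, at 1.07 (adjusted p = 0.0631) on day 7 and 1.13 (adjusted p = 0.0667) on day 14, and leaving out Scx- day 14 replicate 3 ended the day 14 call at 1.06 (adjusted p = 0.0537).

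Col4a2 had 10683 to 23359 units in Scx- and 17211 to 34897 in Scx+ at day 7, with 7779.5 to 31231 in Scx- and 17293 to 38482 in Scx+ at day 14, against 8330.4 to 11303 in the controls. The Scx+ libraries all lay above the controls, whereas both Scx- groups overlapped them. The log2 fold change in Scx+ was 1.34 ± 0.40 at day 7 (adjusted p = 0.0077, limma) and 1.33 ± 0.40 at day 14 (adjusted p = 0.00935). In Scx- it was 0.77 ± 0.40 at day 7 (adjusted p = 0.106) and 0.89 ± 0.40 at day 14 (adjusted p = 0.08). On library totals both Scx- differences passed, at 1.47 (adjusted p = 0.00619) and 1.36 (adjusted p = 0.0138), and the day 14 difference also passed without Scx- replicate 2 alone (1.29, adjusted p = 0.00452) and without replicates 1 and 2 (1.2, adjusted p = 0.0142).

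**Figure D2:**
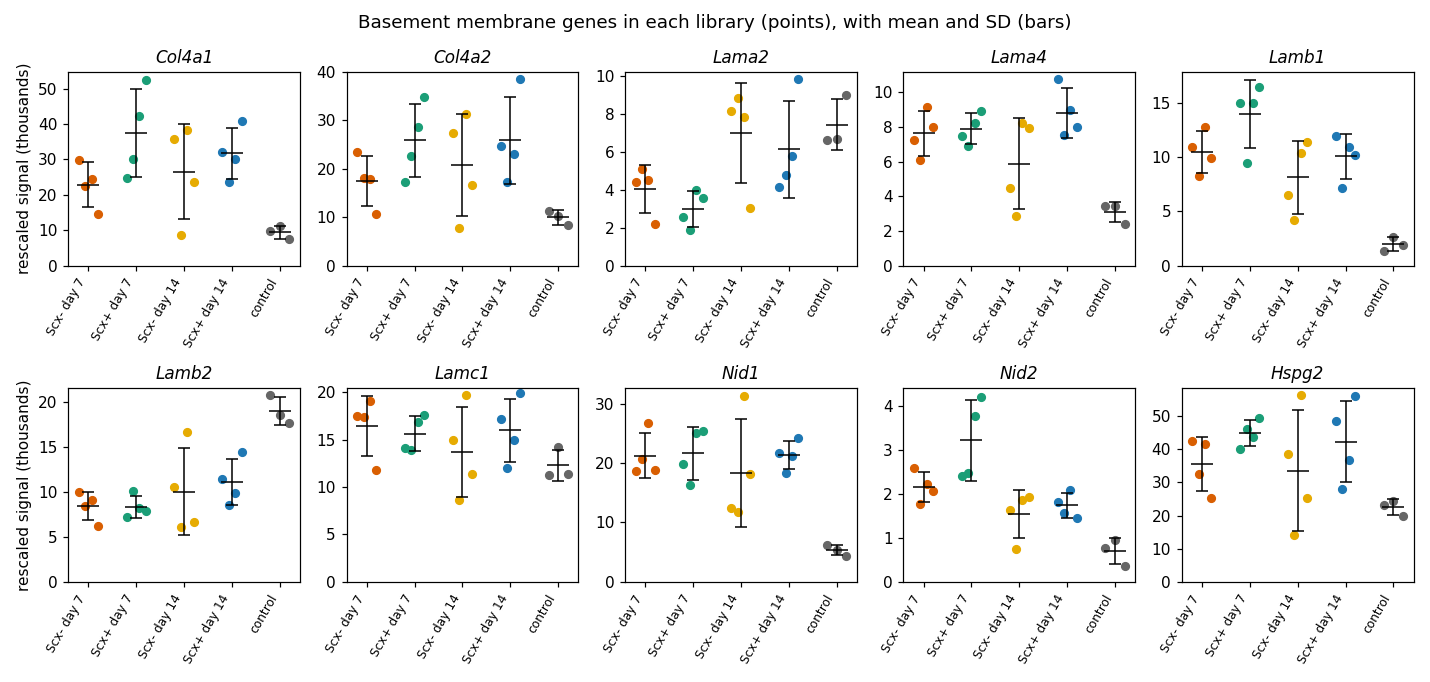
Rescaled signal (kilo-units) of each gene in every library, by group, with the mean and SD as bars (n = 4 stimulated, n = 3 control). Control points lie below all stimulated points for Lamb1 and Nid1 and above all of them for Lamb2, and the SD is largest in Scx- day 14 for every gene but Nid2.

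The laminin alpha chains went separate ways. Lama4, the alpha chain of vessel walls and of several mesenchymal tissues, had 7240.3, 6113.5, 9165 and 7996.5 units in Scx- and 7477, 6874, 8244 and 8943.5 in Scx+ at day 7. At day 14 it had 4487, 2844, 8232 and 7964 in Scx- and 10756, 7533, 8969.8 and 7976 in Scx+, against 3411, 3448 and 2411 in the controls. The muscle-rich Scx- day 14 replicates 1 and 2 had the lowest values of the 16, and replicate 2 was within the control range. The log2 fold change was 1.31 ± 0.28 in Scx- (adjusted p = 0.000844, limma) and 1.36 ± 0.28 in Scx+ (adjusted p = 0.000522) at day 7, and 1.52 ± 0.28 in Scx+ at day 14 (adjusted p = 0.000267). In Scx- at day 14 it was 0.82 ± 0.28 (adjusted p = 0.0271), a call lost without control replicate 3 (0.64, adjusted p = 0.124), without Scx- replicate 3 (0.62, adjusted p = 0.0911) and without Scx- replicate 4 (0.63, adjusted p = 0.0927). After removal of the muscle-rich pair, it was 1.40 (adjusted p = 4.55e-05). With the mean of the muscle markers as a covariate the Scx+ day 7 difference was 1.01 (adjusted p = 0.0585).

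Lama2, the alpha chain of laminin around muscle fibres and Schwann cells, had 4384, 5069, 4515 and 2212 units in Scx- and 2568, 1859.9, 3968 and 3556 in Scx+ at day 7. The day 14 libraries had 8169.9, 8845, 7833 and 3058 in Scx- and 4135, 4768, 5763 and 9817 in Scx+, against 6647, 6648 and 8974 in the controls. All 8 day 7 libraries were below the controls, and the day 14 groups overlapped them. It fell by 0.93 ± 0.38 in Scx- (adjusted p = 0.0464, limma) and by 1.36 ± 0.38 in Scx+ (adjusted p = 0.00549) at day 7, and differed by -0.19 ± 0.38 in Scx- (adjusted p = 0.714) and -0.35 ± 0.38 in Scx+ (adjusted p = 0.457) at day 14. Without the muscle-rich pair the Scx- day 14 value was -0.59 (adjusted p = 0.285). Muscle markers had their lowest mean shares in these day 7 groups, 2.61% in Scx- and 0.912% in Scx+, and with their mean as a covariate the day 7 differences were -0.17 (adjusted p = 0.67) in Scx- and -0.13 (adjusted p = 0.813) in Scx+. On library totals they were -0.23 (adjusted p = 0.584) in Scx- and -0.68 (adjusted p = 0.0973) in Scx+, and the day 14 values turned positive. The Scx- call at day 7 was also lost without any 1 of the control libraries (adjusted p = 0.0637, 0.0686 and 0.138 without replicates 1, 2 and 3), and without Scx- replicates 1, 3 or 4 (adjusted p = 0.0562, 0.0507 and 0.153).

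Of the beta chains, which stand in for each other in otherwise like laminins, Lamb1 was far higher than in the controls and Lamb2 lower. Lamb1 had 10962, 8241.5, 12811 and 9909 units in Scx- and 14994, 9459, 14980.5 and 16478 in Scx+ at day 7. The values at day 14 were 6499, 4197, 10409 and 11379.8 in Scx- and 11942, 7186.5, 10900.1 and 10209 in Scx+, against 1339, 2639 and 1893 in the controls. No stimulated library came near the highest control. Among the 10 genes its rise was the largest in all 4 comparisons: 2.46 ± 0.31 in Scx- (adjusted p = 5.99e-06, limma) and 2.86 ± 0.31 in Scx+ (adjusted p = 1.27e-06) at day 7, and 2.0 ± 0.31 in Scx- (adjusted p = 0.000116) and 2.39 ± 0.31 in Scx+ (adjusted p = 1.07e-05) at day 14. As fitted folds these were 5.49 in Scx- and 7.25 in Scx+ at day 7, and 4.0 in Scx- and 5.24 in Scx+ at day 14. With the muscle-rich pair left out, the Scx- day 14 value was 2.52.

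Lamb2, the beta chain of the synaptic part of muscle fibre basement membrane, of vessel walls and of kidney, had 9988, 8395, 9138.5 and 6243 units in Scx- and 7236, 10073.5, 8249 and 7899 in Scx+ at day 7. The day 14 libraries had 10592, 6134, 16666 and 6699.7 in Scx- and 11427, 8549, 9933 and 14443 in Scx+, against 20772, 18588 and 17698 in the controls. All 16 stimulated libraries were below the 3 controls, the closest being Scx- day 14 replicate 3. It fell by 1.19 ± 0.28 in Scx- (adjusted p = 0.00146, limma) and by 1.19 ± 0.28 in Scx+ (adjusted p = 0.00128) at day 7. At day 14 it fell by 1.04 ± 0.28 in Scx- (adjusted p = 0.00605) and by 0.80 ± 0.28 in Scx+ (adjusted p = 0.0206). On library totals it stayed negative but passed in none of the 4, with -0.49 and -0.52 in Scx- and Scx+ at day 7 and -0.56 and -0.19 in Scx- and Scx+ at day 14 (adjusted p = 0.118 to 0.577). With the muscle markers as a covariate all 4 falls passed, by 1.23 and 1.27 in Scx- and Scx+ at day 7 and by 1.05 and 0.84 in Scx- and Scx+ at day 14. After removal of the muscle-rich pair, the Scx- day 14 value was -0.85 (adjusted p = 0.0298). The Scx+ day 14 call was lost without control replicate 1 (-0.75, adjusted p = 0.06) and without Scx+ replicate 2 (-0.69, adjusted p = 0.061).

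Lamc1, the gamma chain that most laminins share, passed in none of the 4 comparisons with the controls. It had 11824 to 19009 units in Scx- and 13897 to 17593 in Scx+ at day 7, with 8636 to 19659 in Scx- and 11973 to 19856 in Scx+ at day 14, against 11253 to 14190.5 in the controls. Every stimulated group overlapped the controls. The log2 fold changes were 0.41 and 0.35 in Scx- and Scx+ at day 7 and 0.10 and 0.36 in Scx- and Scx+ at day 14 (SE 0.24 each; adjusted p = 0.162 to 0.769, limma), and the Scx- day 14 value was -0.24 on the deposited scale and 0.29 without the muscle-rich pair. Their 95% intervals reached from -0.42 to 0.92, so a rise of the size seen in Lamb1 lay outside them on this scale. On library totals Lamc1 passed as higher in 3 comparisons, by 1.11 in Scx- and 1.03 in Scx+ at day 7 and by 0.97 in Scx+ at day 14 (adjusted p = 0.00143, 0.0024 and 0.00404).

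Both nidogens, the rod-shaped linkers between laminin and collagen IV, rose in all 4 groups. Nid1 had 18643, 20679, 26828 and 18856 units in Scx- and 19768, 16224, 25065 and 25429 in Scx+ at day 7. At day 14 it had 12431, 11696.5, 31278 and 18092 in Scx- and 21771.5, 18321, 21122.5 and 24152 in Scx+, against 6112, 5273 and 4427 in the controls. Every stimulated library was above every control. The log2 fold change was 2.01 ± 0.27 in Scx- (adjusted p = 1.09e-05, limma) and 2.02 ± 0.27 in Scx+ (adjusted p = 8.67e-06) at day 7, and 1.70 ± 0.27 in Scx- (adjusted p = 0.000139) and 2.02 ± 0.27 in Scx+ (adjusted p = 1.37e-05) at day 14. Without the muscle-rich pair the Scx- day 14 value was 2.18.

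Nid2 stood at a lower level and varied more between groups. It had 2579, 1763.5, 2226 and 2063 units in Scx- and 2406, 2467, 3775 and 4208 in Scx+ at day 7. The day 14 libraries had 1623, 744, 1869 and 1932 in Scx- and 1821, 1567, 2089 and 1459.5 in Scx+, against 763, 958 and 368 in the controls. Only Scx- day 14 replicate 2 lay among the controls. The log2 fold change was 1.72 ± 0.33 in Scx- (adjusted p = 0.000303, limma) and 2.27 ± 0.33 in Scx+ (adjusted p = 2.01e-05) at day 7, and 1.16 ± 0.33 in Scx- (adjusted p = 0.00948) and 1.41 ± 0.33 in Scx+ (adjusted p = 0.00175) at day 14. Without control replicate 3, the lowest library, the Scx- day 14 difference was 0.75 (adjusted p = 0.0802), and without the muscle-rich pair it was 1.55 (adjusted p = 0.00108).

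Perlecan (Hspg2), the large heparan sulfate proteoglycan of basement membranes, had 25189 to 42664 units in Scx- and 40126 to 49567 in Scx+ at day 7. At day 14 it had 14005 to 56384 in Scx- and 28135 to 56016 in Scx+, against 19747 to 24459 in the controls. Only the Scx- day 14 group overlapped the controls. The log2 fold change in Scx+ was 1.0 ± 0.35 at day 7 (adjusted p = 0.0197, limma) and 0.87 ± 0.35 at day 14 (adjusted p = 0.0423). In Scx- it was 0.63 ± 0.35 at day 7 (adjusted p = 0.127) and 0.40 ± 0.35 at day 14 (adjusted p = 0.364). The Scx+ calls were not firm: with the muscle covariate they were 0.91 (adjusted p = 0.175) and 0.82 (adjusted p = 0.108), and the day 7 call was lost without control replicate 3 (0.89, adjusted p = 0.0699). The day 14 call was lost without any 1 of the 3 control libraries (adjusted p = 0.0675 to 0.125) and without Scx+ replicates 1, 3 or 4 (adjusted p = 0.0943, 0.0524 and 0.105). On library totals the Scx- day 7 difference passed at 1.33 (adjusted p = 0.00483), and without Scx- day 14 replicate 2 the Scx- day 14 difference passed at 0.76 (adjusted p = 0.0383). With the muscle-rich pair left out, it was 0.74 (adjusted p = 0.0685).

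A ratio of 2 chains within a library does not depend on how libraries are scaled, and 4 such ratios were compared between groups. The ratio of Lamb2 to Lamb1 signal was 0.911, 1.02, 0.713 and 0.63 in Scx- and 0.483, 1.06, 0.551 and 0.479 in Scx+ at day 7. At day 14 it was 1.63, 1.46, 1.6 and 0.589 in Scx- and 0.957, 1.19, 0.911 and 1.42 in Scx+, against 15.5, 7.04 and 9.34 in the controls. The lowest control was more than 4 times the highest stimulated library. The mean log2 ratio differed from that of the controls by -3.65 in Scx- and -4.05 in Scx+ at day 7 and by -3.04 in Scx- and -3.19 in Scx+ at day 14, with no overlap. After removal of the muscle-rich pair, the Scx- day 14 difference was -3.37. Each gave an exact two-sided permutation p of 0.0571, the smallest that 4 libraries against 3 allow. After Benjamini-Hochberg adjustment over 32 tests (4 ratios, 8 comparisons) the smallest adjusted value was 0.141, and with these group sizes none could have passed.

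The alpha chain ratio moved toward Lama4. The ratio of Lama4 to Lama2 averaged 2.13 ± 1.05 in Scx- and 2.80 ± 0.69 in Scx+ at day 7 (SD, n = 4 each), and 1.13 ± 1.03 in Scx- and 1.64 ± 0.73 in Scx+ at day 14 (SD, n = 4 each), against 0.434 ± 0.143 in the controls (SD, n = 3). All groups but Scx- day 14 lay above the controls without overlap, by 2.24, 2.72 and 1.86 log2 units in Scx- day 7, Scx+ day 7 and Scx+ day 14 (exact permutation p = 0.0571 each, adjusted 0.141). The 4 libraries of Scx- day 14 gave 0.549, 0.322, 1.05 and 2.6. The 2 muscle-rich libraries held the lowest values, and the group differed from the controls by 1.01 log2 units (exact permutation p = 0.229), or by 1.99 without them.

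The collagen IV chains had the narrowest spread of the 4 ratios within each group. The ratio of Col4a2 to Col4a1 averaged 0.760 ± 0.037 in Scx- and 0.697 ± 0.040 in Scx+ at day 7, and 0.795 ± 0.077 in Scx- and 0.802 ± 0.093 in Scx+ at day 14 (SD, n = 4 each), against 1.06 ± 0.13 in the controls (SD, n = 3). The stimulated libraries were between 0.665 and 0.94, and the controls were 1.16, 0.914 and 1.11. The log2 ratio differed from that of the controls by -0.47 in Scx- and -0.60 in Scx+ at day 7 and by -0.41 in Scx- at day 14 without overlap (exact permutation p = 0.0571 each), and by -0.40 in Scx+ at day 14, where Scx+ replicate 4 overlapped them (exact permutation p = 0.114). Without the muscle-rich pair the Scx- day 14 difference was -0.47. The ratio of Nid2 to Nid1 was between 0.0598 and 0.182 in all 19 libraries, and no stimulated group was apart from the controls (exact permutation p = 0.229 to 0.514).

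**Figure D3:**
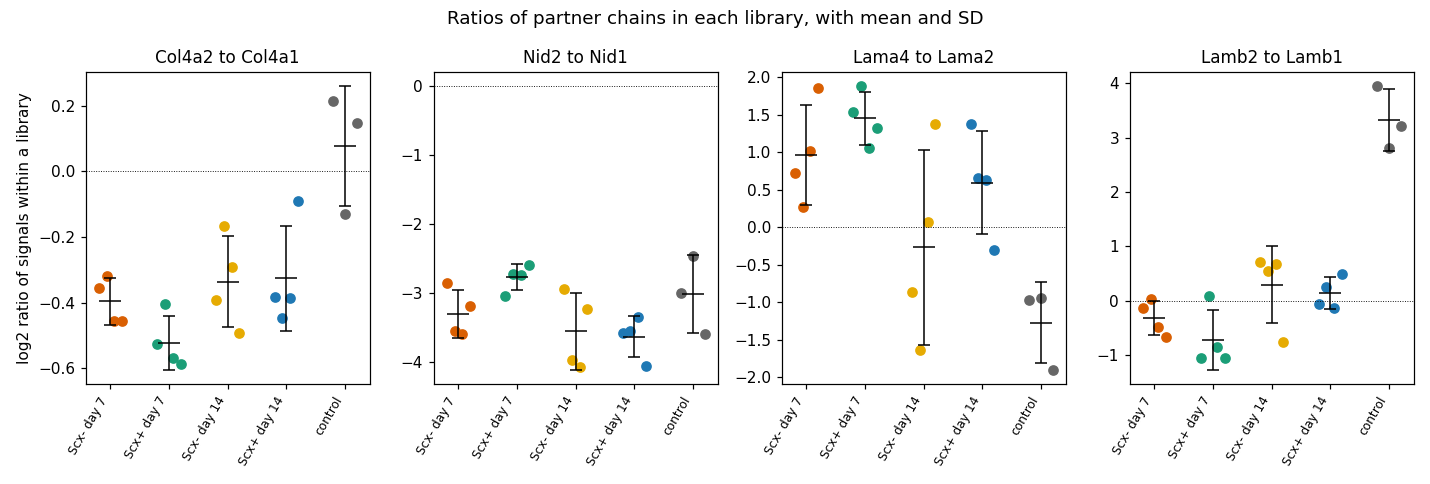
Log2 ratio of 2 chains within each library, by group, with mean and SD (n = 4 stimulated, n = 3 control); 0 means equal signal. For Lamb2 to Lamb1 the 3 controls lie at 2.82 to 3.95 and all stimulated libraries at 0.70 or less, whereas Nid2 to Nid1 shows no such separation.

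Levels of different genes were compared per kilobase of annotated exon. In the controls Lamb2 was highest at 3127 ± 260 units per kb (SD, n = 3), followed by Hspg2 at 1572, Col4a2 at 1502, Lamc1 at 1483 and Col4a1 at 1269. Those 4 neighbours overlapped in range. In all 4 stimulated groups Col4a1 stood first, at 3068 ± 846 in Scx- and 5014 ± 1669 in Scx+ at day 7 and 3561 ± 1814 in Scx- and 4243 ± 962 in Scx+ at day 14 (SD, n = 4 each). The ranges of the next genes in order there, Col4a2, Nid1 and Hspg2, overlapped that of Col4a1 in all 4 groups. Within each day 7 library Col4a2 was below Col4a1 per kb, at ratios of 0.821 to 0.904 in Scx- and 0.75 to 0.851 in Scx+. At day 14 this ratio was 0.802 to 1.005 in Scx- and 0.828 to 1.06 in Scx+. Nid1 and Hspg2 were not compared with Col4a1 within libraries, so their place in the order is not resolved. The lowest levels were those of Lama2 and Nid2 in stimulated groups, at 183 to 427 and 298 to 621 units per kb, and of Nid2 and Lamb1 in the controls, at 135 and 197.

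As a share of the 10 genes' signal per kb, Lamb2 took 8.17% ± 0.31 in Scx- and 6.67% ± 1.74 in Scx+ at day 7, and 9.8% ± 1.95 in Scx- and 8.94% ± 0.32 in Scx+ at day 14, against 29.2% ± 2.07 in the controls (SD). Lamb1 took 6.32% and 6.69% in Scx- and Scx+ at day 7 and 5.07% and 5.04% in Scx- and Scx+ at day 14, against 1.84% in the controls. Col4a1 and Nid1 took larger shares than in the controls in all 4 groups, while Hspg2 held 13.3% to 15% in each of the 5 groups. The 10 genes together made up 0.347% ± 0.0617 of the library signal in Scx- and 0.427% ± 0.0897 in Scx+ at day 7, 0.303% ± 0.142 in Scx- and 0.388% ± 0.0762 in Scx+ at day 14 (SD, n = 4 each), and 0.134% ± 0.0149 in the controls (SD, n = 3).

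**Figure D4:**
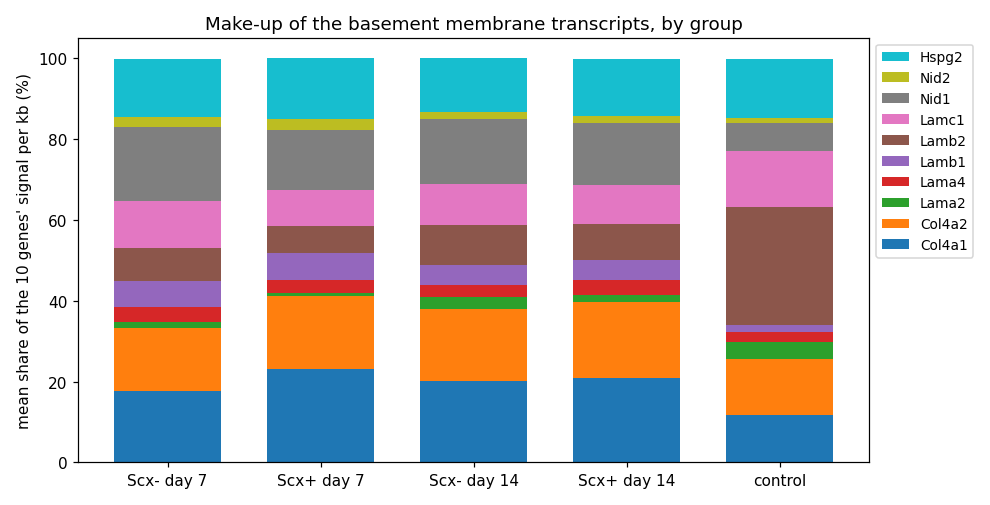
Mean share (%) of each gene in the summed signal per kb of the 10 genes, by group (n = 4 stimulated, n = 3 control). The Lamb2 band is 29.2% of the control bar and 6.67% to 9.8% of the stimulated bars, and the Hspg2 band has much the same height in all 5.

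The comparison of Scx- with Scx+ asked whether the genotypes differed in these genes under the stimulus. None of the 10 passed at either day. At day 7, 0.77% of all genes tested passed, and at day 14, 0.517% (limma). Without adjustment, 0 of the 10 genes had a p under 0.05 at day 7, and 1, Lama4, at day 14. All 10 overlapped between genotypes at both days, where 7.89% of all genes at day 7 and 4.81% at day 14 did not. The median of the 10 was -0.21 at day 7 and -0.36 at day 14, beside 0.02 at both days over all genes.

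The values with the largest sizes were as follows. Col4a1 had a mean of 22899 ± 6313 units in Scx- at day 7 (SD, n = 4), against 37422 ± 12457 units in Scx+ (SD, n = 4), a difference of -0.69 ± 0.38 (adjusted p = 0.781, limma) with a 95% interval from -1.49 to 0.10. Col4a2 and Nid2 differed by -0.57 ± 0.37 and -0.54 ± 0.31 at day 7 (adjusted p = 0.808 and 0.782). Lama4 at day 14 had a mean of 5882 ± 2648 units in Scx-, against 8809 ± 1430.4 units in Scx+ (SD, n = 4 per group), a difference of -0.70 ± 0.26 (adjusted p = 0.265) with a 95% interval from -1.25 to -0.14. The lower Scx- mean rested on its muscle-rich replicates 1 and 2, at 4487 and 2844, while replicates 3 and 4 lay at 8232 and 7964, inside the Scx+ range of 7533 to 10756. Lama4 passed on the deposited scale, at -0.94 (adjusted p = 0.0467), where the median gene itself lay at -0.24, and Nid2 at day 7 passed with sample weights, at -0.76 (adjusted p = 0.0454).

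Among the 95% intervals of these 20 differences, the lowest end was -1.49 (Col4a1 at day 7) and the highest 1.18 (Lama2 at day 7). Each gene has its own narrower interval, such as -0.42 to 0.53 for Lamc1 at day 7. For a given gene, genotype differences within its own interval cannot be set aside. For Lamb2 and Lamc1 at day 7 the differences were 0.0026 ± 0.26 and 0.057 ± 0.23 (SE), and both turned negative on the deposited scale, while that of Nid1 was -0.017 ± 0.25 and turned positive on library totals. The difference between the genotype effects at the 2 days passed for 0 of the 10 genes (adjusted p = 1 for each, limma; 0 with an unadjusted p under 0.05), with 0.018% of all genes passed. The authors' deposited table likewise has 0 of the 10 genes under an adjusted p of 0.05 between genotypes, its smallest being 0.0983 for Col4a1 at day 7 and 0.538 for Lama4 at day 14.

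Without Scx- day 14 replicates 1 and 2, Lama4 differed between genotypes at day 14 by -0.11, and 4 genes changed direction. Lama2 was then -0.24, Lamb1 0.14, Nid1 0.16 and Nid2 0.14, each with an adjusted p of 1. Within the group the libraries differed across nearly all 10 genes: replicate 2 was below the group mean for 9 of 10, by a median of 0.88 log2 units, and replicate 3 was above it for 10 of 10, by a median of 0.67. In no other group was the median deviation of a library over 0.433 in size.

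From day 7 to day 14 none of the 10 genes passed in either genotype, where 5.25% of all genes passed in Scx- and 0.0301% in Scx+ (limma; 873 and 5 genes of 16625). With the muscle-rich pair left out, 282 genes passed in Scx-, none of them among the 10. With an unadjusted p under 0.05 there were 0 of 10 in Scx- and 2 of 10 in Scx+, Lama2 and Nid2, which were also the only 2 whose Scx+ groups did not overlap, as 9.89% of all genes did not. Lama2 in Scx+ was 4135, 4768, 5763 and 9817 units at day 14, against 2568, 1859.9, 3968 and 3556 at day 7, a difference of 1.01 ± 0.36 (adjusted p = 0.283) with a 95% interval from 0.26 to 1.76. Muscle markers moved the same way, at 0.216% to 7.85% of the signal at day 14 against 0.0292% to 1.77% at day 7. Nid2 in Scx+ was 1821, 1567, 2089 and 1459.5 at day 14, against 2406, 2467, 3775 and 4208 at day 7, a difference of -0.86 ± 0.31 (adjusted p = 0.297) with a 95% interval from -1.51 to -0.21. It passed with sample weights, at -1.06 (adjusted p = 0.0162).

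Nid1 had like values at both days. In Scx+ it averaged 21342 ± 2399 at day 14 and 21622 ± 4432 at day 7 (SD, n = 4 each), and the ratio of Nid2 to Nid1 was 0.0837, 0.0856, 0.099 and 0.0605 at day 14, against 0.122, 0.152, 0.151 and 0.166 at day 7. The groups did not overlap, and the log2 ratio differed by -0.86 at day 14 (exact permutation p = 0.0286, the smallest that 4 against 4 allow; adjusted 0.141 over 32 tests). In Scx- the ratio differed by -0.25 with overlap (exact permutation p = 0.429), and the difference between the genotypes in this change was not tested. In the authors' deposited table Nid2 in Scx+ is lower at day 14 by a log2 fold change of -0.89 (adjusted p = 0.00455) and Lama2 higher by 1.05 (adjusted p = 0.0238), and in Scx- none of the 10 genes is under 0.05.

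Within groups the 10 genes varied together to very different degrees. Over the 19 libraries, with each group mean subtracted, the correlation of log2 values between 2 of the 10 genes had a median of 0.60 over 45 pairs, from -0.39 (Lama2 and Lama4) to 0.97 (Col4a1 and Col4a2). These points share library scaling and the depth of each library, and the values are descriptions. Scx- day 14 replicates 2 and 3 weigh most in them, with median deviations over the 10 genes of -0.88 and 0.67. The next largest was -0.433, in Scx- day 7 replicate 4. Correlations without replicates 2 and 3 of Scx- day 14 were not taken. Of all other genes tested, the most like Col4a1 after Col4a2 were Nrarp, a target and inhibitor of Notch signals (r = 0.95), and the vascular adhesion gene Mcam (r = 0.95). Those most like Col4a2 after Col4a1 were Nrarp (r = 0.96) and the receptor gene Notch1 (r = 0.95).

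Perlecan and the gamma chain were also a close pair, at r = 0.94 for Hspg2 and Lamc1. Kdm6b, which encodes a histone demethylase, was near both, at r = 0.95 with Hspg2 and 0.91 with Lamc1, and Hivep1 was at 0.90 with Lamc1. Hspg2 was also the gene most like Lamb2 (r = 0.92), before Rhbdf1 (r = 0.91). Lama4 was most like Pxdn, the peroxidasin that crosslinks collagen IV (r = 0.94), Col5a3 (r = 0.93) and Cask (r = 0.93). Nid2 was most like the endothelin receptor gene Ednra (r = 0.92), and Lama2 like Gm10814, 8030462N17Rik and Nrip1 (r = 0.92 each). For Lamb1 and Nid1 no gene reached 0.9.

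**Figure D5:**
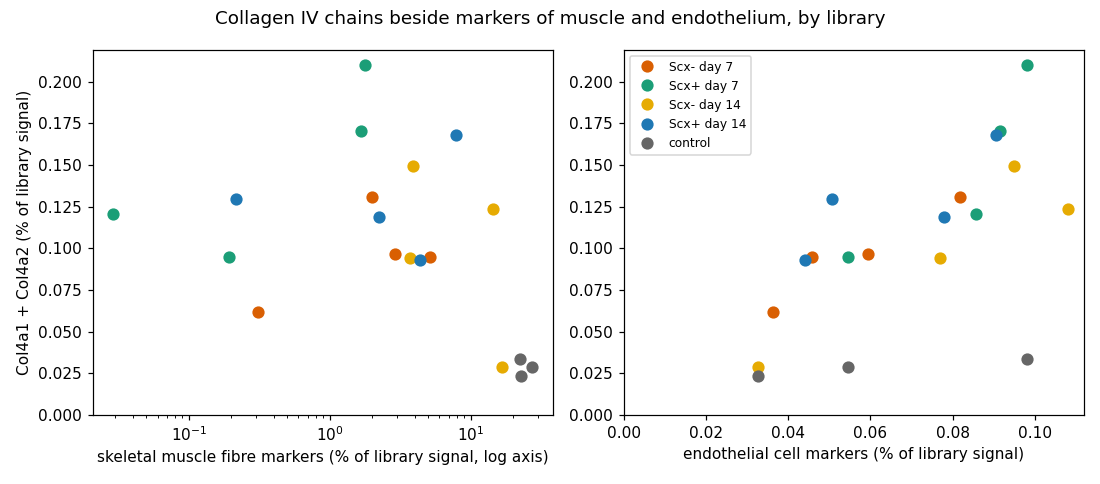
Summed share of Col4a1 and Col4a2 in the library signal (%) against that of skeletal muscle fibre markers (left, log axis) and of endothelial cell markers (right), 1 point per library. The 3 controls lie at 0.0231% to 0.0334% collagen IV with endothelial shares of 0.0327% to 0.0982%, and 15 of the 16 stimulated libraries at 0.0615% or more.

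Markers of the cells that basement membranes surround were measured beside these genes. Endothelial markers (12 genes, none at 0) took 0.0364% to 0.0818% of the signal in Scx- and 0.0546% to 0.0981% in Scx+ at day 7, 0.0326% to 0.108% in Scx- and 0.0442% to 0.0906% in Scx+ at day 14, with 0.0327% to 0.0982% in the controls. These ranges overlap in all 5 groups. Against the control, 25.5% to 33.8% of all genes tested passed as higher and 18.3% to 27.5% as lower. Of the 12 markers 0 passed as higher in any group, and 2 passed as lower in Scx- at day 7 and 1 in Scx+ at day 14. Their median log2 fold change was -0.70 in Scx- and -0.19 in Scx+ at day 7, and -0.09 in Scx- and -0.29 in Scx+ at day 14. Without the muscle-rich pair the Scx- day 14 median was 0.07, with 0 passed in either direction.

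The marker counts that follow stand beside the same shares of all genes tested, 25.5% to 33.8% higher and 18.3% to 27.5% lower. Among 10 pericyte and mural cell markers, 2 passed as higher in each of the 4 groups and 2, 3, 0 and 1 as lower in Scx- day 7, Scx+ day 7, Scx- day 14 and Scx+ day 14. Over the whole list, 8 of the 10 were negative in Scx- day 7, 5 in Scx+ day 7, 6 in Scx- day 14 and 8 in Scx+ day 14. The median log2 fold changes were -0.62, -0.07, -0.29 and -0.12 in the same order. With the muscle-rich pair left out, 2 passed as higher and 1 as lower in Scx- day 14, with a median of -0.02. The 2 that passed as higher, named after their values were seen, were the same in all 4 groups. At day 7 Acta2, smooth muscle actin, rose by 2.81 in Scx- and 3.18 in Scx+ (adjusted p = 1.19e-05 and 3.08e-06, limma), and Pdgfrb, a growth factor receptor also found on fibroblasts, by 1.29 in Scx- and 1.62 in Scx+. Of 10 Schwann cell markers 1 or 2 passed as higher and 1 to 3 as lower, and their summed share was 0.0141% to 0.0367% in stimulated libraries and 0.0146% to 0.0176% in the controls. Adipocyte markers (10 genes) passed as lower in 9 or 10 of 10 in each group (in Scx- day 14 in 9, and in 5 without the muscle-rich pair), at 0.0192% to 0.142% of the signal in stimulated libraries and 0.277% to 0.362% in the controls. Macrophage markers (8 genes) passed as higher in 7, 7, 4 and 5 in Scx- day 7, Scx+ day 7, Scx- day 14 and Scx+ day 14. In Scx- day 14 without the muscle-rich pair, 5 of these 8 passed as higher. The part of these cell types in the differences of the 10 genes was not tested. The muscle covariate does not settle the part of muscle against the control. Muscle markers took 22.6% to 27.1% of the signal in the controls and at most 16.8% in any stimulated library. Muscle content and the stimulus therefore largely vary together there and cannot be told apart.

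Other genes of the pathway were taken from 4 lists written with earlier results of these data known. Their counts stand beside shares of all genes tested of 32.3% higher and 25.9% lower in Scx- day 7, 33.8% and 27.5% in Scx+ day 7, 25.5% and 18.3% in Scx- day 14, and 30.9% and 25% in Scx+ day 14. Of 26 other basement membrane genes tested, 8 passed as higher and 7 as lower in Scx- day 7, 9 and 4 in Scx+ day 7, 8 and 4 in Scx- day 14, and 9 and 3 in Scx+ day 14. Their median lay between 0.37 and 0.44, and members passed in both directions in each group. After removal of the muscle-rich pair, 25 were tested and 11 passed as higher and 4 as lower in Scx- day 14, with a median of 0.71. The genes with the smallest adjusted p in Scx+ day 7 were Smoc2, a calcium-binding matrix protein (2.20 ± 0.21, adjusted p = 3.86e-07, limma), Fbln2, encoding fibulin 2 (2.51 ± 0.27, adjusted p = 9.5e-07), Col18a1, whose product carries endostatin (3.11 ± 0.48), and Sparc, encoding a collagen IV binding protein (2.32 ± 0.38), all higher. Egflam, encoding pikachurin, a ligand of dystroglycan, fell by 3.57 ± 0.37 (adjusted p = 8.15e-07), and Fras1, of the epithelial anchorage complex, by 4.77 ± 0.64 (adjusted p = 9.65e-06).

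Of 14 genes tested for the folding, modification and crosslinking of collagen IV, 12 passed as higher and 2 as lower in Scx- day 7, 12 and 1 in Scx+ day 7, 10 and 2 in Scx- day 14, and 11 and 1 in Scx+ day 14, with medians of 1.48, 1.71, 0.89 and 1.59. Of all genes tested, 58.2%, 61.3%, 43.9% and 55.9% passed in these comparisons in either direction. Most of these enzymes also serve fibrillar collagens. In Scx+ day 7 the smallest adjusted p values were those of P3h1 (2.37 ± 0.21), P4hb (1.83 ± 0.18), the collagen chaperone gene Serpinh1 (3.17 ± 0.32), Plod1 (1.57 ± 0.16), Crtap (2.63 ± 0.29) and Pxdn (2.67 ± 0.31), with adjusted p from 1.25e-07 to 2.18e-06 (limma). Mia3, needed for export of large collagens and named after its values were seen, fell in all 4 comparisons, with log2 fold changes of -0.63 in Scx- and -0.49 in Scx+ at day 7 and -0.62 in Scx- and -0.52 in Scx+ at day 14. Between genotypes, 0 of the 26 other basement membrane genes, 17 receptors and 11 proteases and inhibitors tested passed at either day. Of the folding and crosslinking list 1 gene passed at each day. P3h2, a prolyl hydroxylase that acts on collagen IV, fell by 1.74 ± 0.40 in Scx- at day 7 (adjusted p = 0.0486), and Plod1, a lysyl hydroxylase, by 0.95 ± 0.15 at day 14 (adjusted p = 0.0068), where 0.77% and 0.517% of all genes passed. Without the muscle-rich pair Plod1 no longer passed, at -0.72 ± 0.16 (adjusted p = 0.124).

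Receptors of laminin and collagen IV were split in each comparison. Of 17 tested, 5 passed as higher and 5 as lower in Scx- day 7, Scx+ day 7 and Scx+ day 14, and 5 and 3 in Scx- day 14 (5 and 4 without the muscle-rich pair). Those that rose in Scx+ day 7 included Itgb1, the beta 1 integrin chain common to most matrix receptors (0.88 ± 0.16, adjusted p = 0.00015, limma), and the syndecans Sdc1 (2.48 ± 0.44, adjusted p = 0.00014) and Sdc4 (1.21 ± 0.22, adjusted p = 0.000178). Those that fell included members of the dystrophin-associated complex of muscle fibres, Sgcd (-1.95 ± 0.34, adjusted p = 9.72e-05), Sgcb (-0.77 ± 0.14, adjusted p = 0.000153) and Sgca (-5.83 ± 1.36, adjusted p = 0.00163), in libraries whose muscle markers were also lower.

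Of 11 proteases and inhibitors that act on basement membranes, 9 passed as higher and 1 as lower in Scx- day 7 and Scx+ day 7, 8 and 0 in Scx- day 14, and 9 and 0 in Scx+ day 14. Their medians were 1.95, 2.03, 1.57 and 2.13, and 58.2%, 61.3%, 43.9% and 55.9% of all genes passed in Scx- day 7, Scx+ day 7, Scx- day 14 and Scx+ day 14. With the muscle-rich pair left out, the Scx- day 14 median was 1.97, with the same counts. The membrane protease gene Mmp14 rose by 4.39 ± 0.32 in Scx- and 5.05 ± 0.32 in Scx+ at day 7 and by 4.14 ± 0.32 in Scx- and 4.68 ± 0.32 in Scx+ at day 14 (adjusted p at most 1.43e-07, limma). The inhibitor gene Timp1 rose by 3.93 ± 0.37 in Scx- and 4.65 ± 0.37 in Scx+ at day 7, and Mmp2, whose product cleaves collagen IV, by 2.37 ± 0.35 in Scx- and 2.92 ± 0.35 in Scx+. Mmp3 in Scx- was higher at day 14 than at day 7, by 1.84 ± 0.43 (adjusted p = 0.0179), while 5 of the 14 folding and crosslinking genes were lower there, P4ha2 at -0.92 ± 0.19 (adjusted p = 0.00995) and Plod3 at -0.81 ± 0.18 (adjusted p = 0.0141) among them. In that comparison 5.25% of all genes passed (873 genes), and none of the 10 basement membrane genes. After removal of the muscle-rich pair, 0 of the 14 folding and crosslinking genes passed there, with P4ha2 at -0.71 (adjusted p = 0.131) and Plod3 at -0.63 (adjusted p = 0.153), while Mmp3 was 2.02 ± 0.47 (adjusted p = 0.0464).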

How the data were processed

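RNA-seq values of 19 mouse plantaris tendon libraries were used. Per the submitters' processing notes the tools were FastQC, STAR and DESeq2 and the build was mm10, with no roles given. The authors deposited 1 table of scaled signal per gene and library, summing to 36.6 to 79.8 mega-units, and a second deposited table gives log2 fold changes and adjusted p-values. The signal is not counts: only 38.4% to 67.6% of low values per library lay within 0.1 of a whole multiple of a step, so no count model was run, depth is unknown and no counting interval is given. The planned edgeR scaling was replaced by an own trimmed mean, and the planned DESeq2 alternative was not run.

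Libraries were rescaled by medians of ratios (factors 0.838 to 1.09), genes with at least 10 units in at least 3 libraries were kept, and log2(value + 2) was fitted with limma 3.58.1 (R 4.3.3; mean-variance trend, robust moderation) over the 5 groups, with Benjamini-Hochberg adjustment over 16625 genes at 0.05. A fold change on this scale understates that of low genes. Chain ratios were compared by exact two-sided permutation tests (Python 3.11.15, scipy 1.17.1, pandas 2.3.3). Levels per kb used the GENCODE M21 exon length. The fits were tested on simulated data.

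The 10 genes and the lists were chosen with earlier results of these data known. Named were all 10 genes, up to 6 genes per list with the smallest adjusted p in a comparison, and up to 3 genes per member with a within-group r of at least 0.9. Alternatives were other scalings, filters and pseudocounts (0.5 and 10), no robust moderation, sample weights, a replicate block, a muscle marker covariate, fits of only the groups compared, and each library or the muscle-rich pair left out. The gene list counts without that pair were added after seeing the data.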

Additional observations from a re-analysis of the deposited data

Results flagged for a closer look

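In Scx- day 14, the log2 ratio of Lamb2 to Lamb1 was -0.764 in replicate 4, and the other 3 libraries of the group lay between 0.547 and 0.705. Its distance to the nearest of them was 0.893 of the group's whole range. This was the only one of 56 groups of 4 values examined in which a single library stood so far apart, and chance flags about 1 group in 20. Lamb2 was 6699.7 and Lamb1 11379.8 units in that library, which held 3.74% muscle fibre markers. With or without any 1 library of the group, the ratio remained lower than in the controls.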

How the results depend on the processing

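Outside the removal of single libraries, 709 of 764 values of single genes kept direction and side of the threshold, 25 lost and 13 gained a call, and 17 changed sign. On library totals Nid1 between genotypes at day 7 was 0.00506, and Lama2 at day 14 against the control was 0.29 in Scx- and 0.262 in Scx+. On the deposited scale Lamb2 (-0.0871) and Lamc1 (-0.0325) between genotypes at day 7, Lama2 (-0.0817) between genotypes at day 14 and Lamc1 in Scx- day 14 against the control (-0.24) changed sign. With the muscle covariate, genotype values were -0.0413 for Lama2, 0.0809 for Lama4 and -0.0092 for Lamc1 at day 7 and -0.289 for Lama2 at day 14, and Lama2 at day 14 against the control was 0.0484 in Scx- and 0.337 in Scx+. Without Scx- day 14 replicates 1 and 2, genotype values at day 14 were -0.243 for Lama2, 0.135 for Lamb1, 0.16 for Nid1 and 0.142 for Nid2, and log2 ratios were -0.0178 for Nid2 to Nid1, 0.132 for Lama4 to Lama2 and -0.181 for Lamb2 to Lamb1. The cause was not tested.

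Of the 10 genes, 1 passed between genotypes at day 14 and 3 passed in Scx- day 14 against the control on the deposited scale, and 2 passed in the last comparison when only its groups were fitted. With sample weights 1 passed between genotypes at day 7 and 1 between days in Scx+. Leaving out single libraries gave 3 to 8 genes in Scx- day 14 against the control (3 without control replicate 3, 8 without Scx- day 14 replicate 2) and 0 to 1 between days in Scx- (1 without Scx- day 14 replicate 4). The genotype values then ranged at day 7 from -0.0838 to 0.143 for Lamb2, -0.146 to 0.0699 for Nid1, -0.149 to 0.048 for Lama4 and -0.0206 to 0.21 for Lamc1, and at day 14 from -0.676 to 0.0348 for Col4a1, -0.00322 to 0.517 for Lama2 and -0.389 to 0.0703 for Nid2. In Scx- day 14 against the control they ranged from -0.098 to 0.294 for Lamc1 and -0.341 to 0.173 for Lama2. Log2 ratios ranged from -0.0414 to 0.521 for Nid2 to Nid1 in Scx+ day 7 against the control, and at day 14 between genotypes from -0.0665 to 0.0688 for Col4a2 to Col4a1 and -0.127 to 0.249 for Nid2 to Nid1.

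Over all genes, 86 passed between genotypes at day 14, against 993 on the deposited scale, 48 with weights, 31 with the covariate, 9 when only those groups were fitted and 8 without the muscle-rich pair. At day 7, 128 passed, against 478 with weights and 55 with the covariate. Between days 873 passed in Scx-, against 282 to 2604, and 5 in Scx+, against up to 616 with weights. Against the control, the muscle covariate gave 5248 in Scx+ day 7 in place of 10192, and fitting only the groups compared gave 4237 in Scx- day 14 in place of 7291. The interaction gave 3, against 0 with weights, the block or only the groups compared. Leaving out single libraries gave 41 (without Scx+ day 7 replicate 2) to 186 (without Scx- day 7 replicate 1) between genotypes at day 7, 22 (without Scx+ day 14 replicate 1) to 195 (without Scx- day 14 replicate 3) at day 14, 0 to 37 (without Scx- day 7 replicate 1) for the interaction, 372 (without Scx- day 7 replicate 2) to 1488 (without Scx- day 14 replicate 4) between days in Scx- and 0 to 27 in Scx+.

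Same-numbered libraries deviated together by r of -0.428 to 0.35, so the numbers are not taken as pairs. With the replicate number as a block, 6 of the 10 genes passed in Scx- day 7, 9 in Scx+ day 7, 6 in Scx- day 14 and 8 in Scx+ day 14 against the control, and 0 between genotypes or days; Lama2 in Scx- day 7 was -0.861 (adjusted p = 0.0841, limma). The tests planned for raw counts were not run.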
